A study of Mus musculus and Mus musculus
Rattus norvegicus with 30 samples.

Results

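The TALE homeodomain proteins examined here were encoded by 9 genes, Pbx2, Pbx3, Pbx4, Meis1, Meis2, Meis3, Pknox1, Pknox2 and Tgif1, taken from the count tables by gene symbol out of 19919 genes listed in both tables of mouse embryonic stem cells (mESCs). All 9 were listed in every RNA table and all 9 passed the filter on low counts in every test. TALE proteins carry a homeodomain lengthened by a short loop of amino acids between its helices. Pbx and Meis proteins bind DNA together with Hox proteins, and with the caudal-type Cdx proteins related to them, and sharpen their choice of site. Meis and Pknox (Prep) proteins bind Pbx through a shared N-terminal domain, which helps to hold Pbx in the nucleus, whereas Tgif1 is mainly known as a repressor that limits TGF-beta and retinoic acid responses. Cdx2 itself drives trophoblast fate in the early embryo and posterior Hox expression later, so the levels of its possible partners were followed when Cdx2 was switched on.

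The study asked whether amino acid changes found in the DNA-binding domain of mouse Cdx2, relative to rat Cdx2, alter what Cdx2 does. Stable lines carried a lentiviral, doxycycline-inducible, FLAG-tagged Cdx2. The groups were WT mESCs, mCdx2-OE (labelled mCDX2 OE, mouse Cdx2), rCdx2-OE (labelled rCDX2 OE, rat Cdx2) and 7 mutants in which the 3 mouse changes were put into rat Cdx2 in every combination (rCDX2_R1, R2, R3, R12, R13, R23 and R123). RNA-seq of mESCs covered these 10 groups with 2 libraries each. ATAC-seq, which reads accessible chromatin, covered WT and mCdx2-OE mESCs with 1 library each, and ChIP-seq with an antibody to FLAG covered mCdx2-OE and rCdx2-OE mESCs with 1 library each. RMES cells, which hold 1 haploid mouse and 1 haploid rat genome, gave 4 RNA libraries (2 WT, 1 mCdx2-OE and 1 rCdx2-OE), each split into a mouse and a rat allele table, and 2 ChIP libraries. The 2 constructs with no mutation are called intact Cdx2 below. The study describes its comparison as before and after doxycycline, whereas the labels name the control cells only WT. How many clones a line stands for is not stated, nor whether 2 libraries of a group came from separate cultures, so p-values measure only the spread between libraries.

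The WT mESC libraries held 74960057 and 94686029 counts and the 18 induced mESC libraries 12698443 to 24315929 counts. CPM are counts scaled to the total of the library after its adjustment by TMM normalisation, and not to the plain total. Cdx2 stood at 1.21 to 1.36 CPM in WT, 67.0 to 127.4 CPM with intact Cdx2 and 37.2 to 146.6 CPM with mutant Cdx2. Counts of rat transgene reads on the mouse gene may be incomplete. Mitochondrial genes took 1.63 to 1.73% of counts in WT, 2.82 to 4.03% with intact Cdx2 and 3.86 to 5.58% with mutant Cdx2. The summed level of 6 pluripotency markers was 3547 to 3555 CPM in WT, 2109 to 2344 CPM with intact Cdx2 and 2573 to 3336 CPM with mutant Cdx2. The 7 trophoblast stem cell markers summed to 154.5 to 156 CPM in WT, 549.7 to 749.1 CPM with intact Cdx2 and 155.4 to 277.4 CPM with mutant Cdx2. Of these markers, 6 were tested one by one, and each mutant had 3 or 4 of them over 2-fold higher than WT (edgeR adjusted p under 0.05). That compares with 12.1% of all pairs of genes and mutants. In mCdx2-OE and rCdx2-OE 4 were higher, against 18.4% and 19.0% of all genes, and 1 was lower in R23 and in rCdx2-OE. The 7 markers of fibroblast feeders summed to 34.4 to 34.6 CPM in WT and at most 4.42 CPM in induced libraries, where Lum was at 0 throughout. The part of these differences in the results below was not tested, and in bulk RNA fewer cells of a type and less RNA per cell cannot be told apart.

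Cdx2 ChIP peaks in mESCs lay in the body or within 30 kb of the start of 8 of the 9 genes. Over all 19563 genes with a position, 78.9% had at least 1 such peak. The strongest near 4 genes with changed RNA are shown as examples of the sequence under such peaks. Each line is the 300 bases around the middle of the peak with the most ChIP reads in mESCs, from the + strand of GRCm38 (mm10), with matches to the Cdx motif CNATAAA or the Meis motif TGACAG, searched on both strands, in capitals. The windows are chr11:18916771-18917070 in an intron of Meis1, chr7:16174095-16174394 upstream of Meis3, chr2:34276372-34276671 in an intron of Pbx3 and chr9:36922234-36922533 over an exon of Pknox2.
Meis1: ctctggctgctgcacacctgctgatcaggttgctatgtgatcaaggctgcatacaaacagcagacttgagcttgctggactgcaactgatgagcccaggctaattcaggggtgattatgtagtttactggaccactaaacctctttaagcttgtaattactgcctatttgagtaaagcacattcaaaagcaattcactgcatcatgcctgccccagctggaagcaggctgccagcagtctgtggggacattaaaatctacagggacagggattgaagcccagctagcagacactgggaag
Meis3: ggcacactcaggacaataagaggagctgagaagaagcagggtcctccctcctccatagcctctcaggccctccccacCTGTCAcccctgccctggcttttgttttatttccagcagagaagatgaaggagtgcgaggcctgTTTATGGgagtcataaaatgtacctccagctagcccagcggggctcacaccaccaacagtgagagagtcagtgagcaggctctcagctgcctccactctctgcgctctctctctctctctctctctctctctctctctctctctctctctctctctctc
Pbx3: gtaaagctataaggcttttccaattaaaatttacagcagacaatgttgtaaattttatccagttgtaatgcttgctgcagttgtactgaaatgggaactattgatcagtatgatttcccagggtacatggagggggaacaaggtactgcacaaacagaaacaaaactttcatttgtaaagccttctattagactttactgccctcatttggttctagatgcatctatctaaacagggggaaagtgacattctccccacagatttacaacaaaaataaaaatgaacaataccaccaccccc
Pknox2: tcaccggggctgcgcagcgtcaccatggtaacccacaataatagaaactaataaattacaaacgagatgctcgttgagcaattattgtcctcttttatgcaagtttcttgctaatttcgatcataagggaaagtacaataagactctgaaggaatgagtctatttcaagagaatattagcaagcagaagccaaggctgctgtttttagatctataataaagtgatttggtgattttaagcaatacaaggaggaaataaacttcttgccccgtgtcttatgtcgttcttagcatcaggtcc
The Meis3 window held 1 Cdx match, TTTATGG, and 1 Meis match, CTGTCA, which are CNATAAA and TGACAG read on the other strand. The Meis1 and Pbx3 windows held neither motif, but the whole peaks held 2 and 4 Cdx matches outside the middle 300 bases, and the Pknox2 peak held none. Of the windows not printed, those of Pbx4 and Pknox1 held 1 Cdx match each and that of Tgif1 1 Meis match. Over all 91665 mESC ChIP peaks, 54.8% of such windows held CNATAAA and 17.4% held TGACAG, against 14.3% and 20.1% of windows in 122350 ATAC peaks and 10.9% and 19.2% of 32851 RefSeq promoters of the same length. A match is a description of letters and not a site shown to be bound.

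In WT mESCs the 9 genes spanned a wide range per kilobase of transcript. Pbx2 (21.2 ± 0.23 CPM per kb, mean ± SD, n = 2) and Tgif1 (18.9 ± 0.14 CPM per kb) stood highest. Pknox1 followed at 5.13 ± 0.25 CPM per kb, Pbx4 at 2.07 ± 0.18 and Pbx3 at 1.14 ± 0.071. Meis2 (0.73 ± 0.050 CPM per kb), Pknox2 (0.37 ± 0.012), Meis3 (0.27 ± 0.0072) and Meis1 (0.084 ± 0.012) were the lowest of the 9. The genes with the lowest WT levels per kb were thus the Meis genes and Pknox2.

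**Figure D1:**
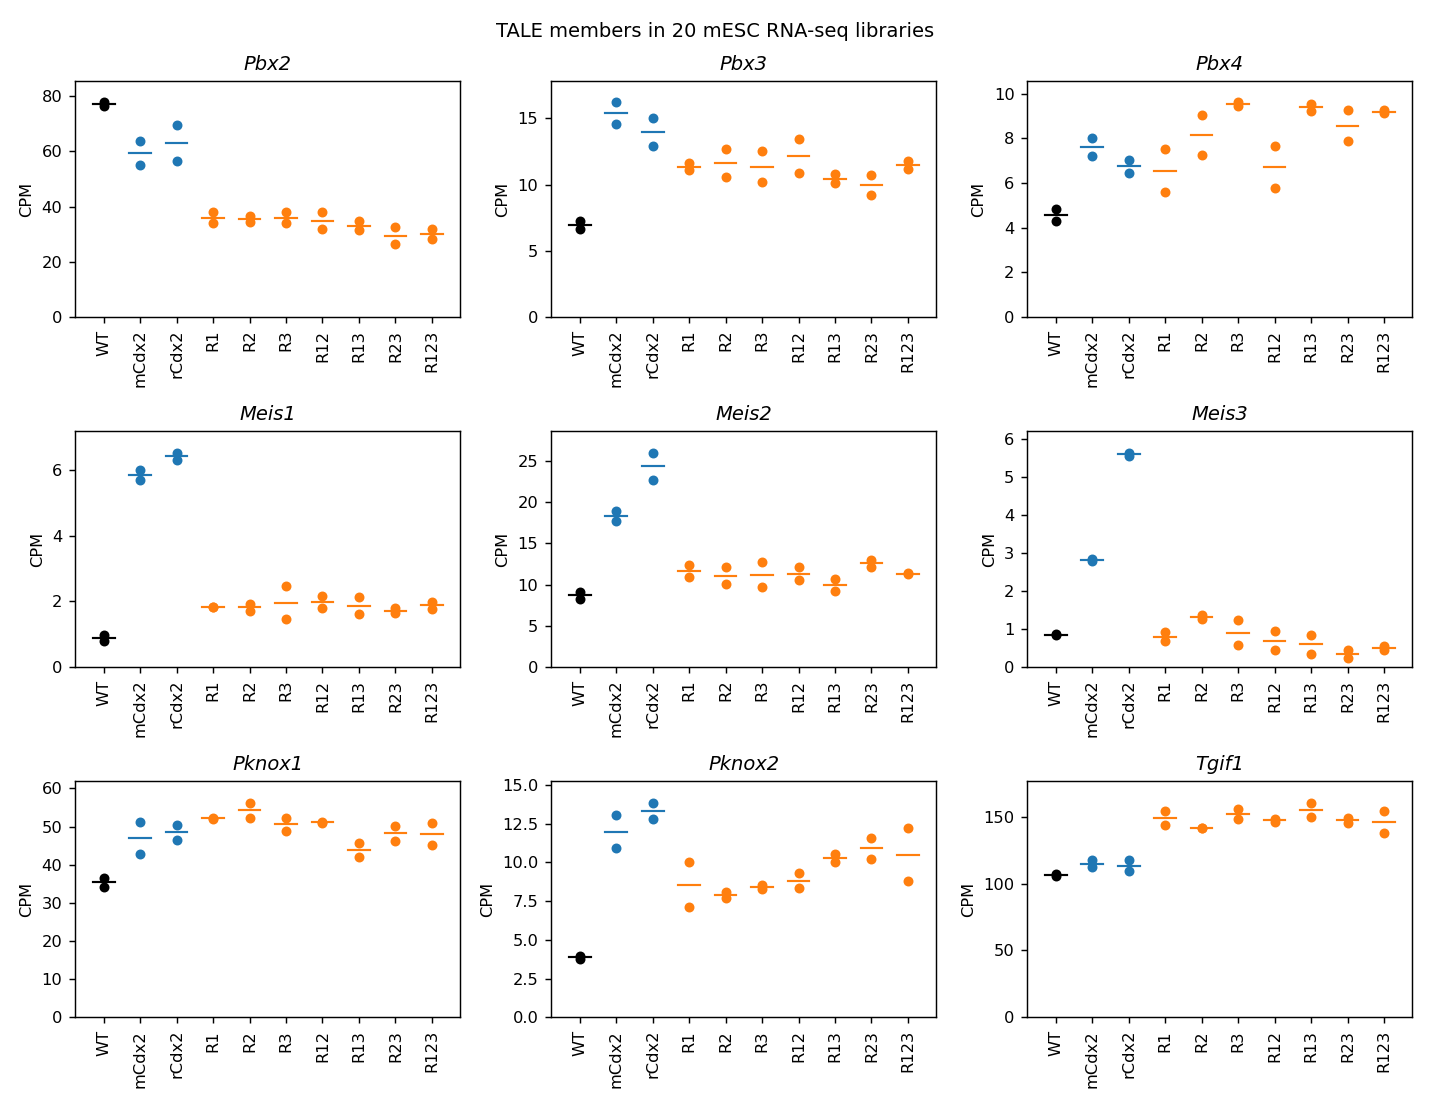
CPM of each of the 9 genes in the 20 mESC RNA libraries, 1 panel per gene, with 1 point per library and the groups along the x axis; each panel has its own y axis from 0. Horizontal lines are means of 2 libraries. Meis1, Meis2 and Meis3 were highest in the 4 libraries with intact Cdx2, Pbx2 was lowest in the 14 mutant libraries, and Tgif1 was highest in them.

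With intact Cdx2 the Meis genes rose, Pknox2 rose with them, and Pbx2 and Tgif1, the genes with the highest WT levels per kb, stayed within 2-fold of WT. A gene was called when the edgeR quasi-likelihood test gave a Benjamini-Hochberg adjusted p under 0.05 and the change was over 2-fold. In mCdx2-OE, 5 of 9 genes were called higher (Pbx3, Meis1, Meis2, Meis3 and Pknox2) and none lower, where 18.4% of the 16000 genes tested were called higher and 15.0% lower. In rCdx2-OE, 4 were called higher (Meis1, Meis2, Meis3 and Pknox2) and none lower, against 19.0% and 15.4% of all genes. At any fold, 8 of 9 passed the adjusted p in each construct, Tgif1 being the exception, against 69.7% and 70.6% of all genes. The median log2 fold change of the 9 was 1.07 for mCdx2-OE and 0.99 for rCdx2-OE, beside −0.03 and −0.04 over all genes tested. The 2 comparisons share the WT libraries.

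Meis1, a Hox cofactor known from haematopoiesis and leukaemia, had the largest change of the 9 in both constructs. It stood at 0.79 and 0.97 CPM in WT, 5.69 and 5.98 CPM in mCdx2-OE and 6.31 and 6.52 CPM in rCdx2-OE. All 4 induced libraries lay above both WT libraries. The log2 fold change was 2.71 (SE 0.20, edgeR adjusted p = 6.3e-09) with mCdx2 and 2.85 (SE 0.20, edgeR adjusted p = 3.0e-09) with rCdx2.

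Meis2, a cofactor used in limb, brain and heart development, was at 8.33 and 9.17 CPM in WT, 17.7 and 19.0 CPM in mCdx2-OE and 22.7 and 26.0 CPM in rCdx2-OE. The groups did not overlap, and the change was 1.07 (SE 0.13) and 1.47 (SE 0.13) on the log2 scale. Without WT replicate 2 the mCdx2 change was 0.99, just under the 2-fold limit. Meis3, the remaining Meis gene, was at 0.84 and 0.87 CPM in WT, 2.80 and 2.86 CPM in mCdx2-OE and 5.65 and 5.57 CPM in rCdx2-OE. Here too WT lay below every library with intact Cdx2, with log2 changes of 1.72 (SE 0.30) and 2.71 (SE 0.29).

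Pknox2, a Prep protein found mainly in nervous tissue and muscle, was at 3.78 and 3.96 CPM in WT, 10.9 and 13.1 CPM in mCdx2-OE and 12.8 and 13.9 CPM in rCdx2-OE, with log2 changes of 1.62 (SE 0.16) and 1.77 (SE 0.16). Its relative Pknox1, which is expressed widely, was at 34.1 and 36.6 CPM in WT and 43.0 to 51.3 CPM with intact Cdx2, and passed the adjusted p with 1.33-fold and 1.37-fold higher levels. The 2 Pknox genes thus differed in how far they moved, a difference between genes that was not tested.

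Among the Pbx genes, which supply the partner that contacts Hox proteins directly, Pbx3 was at 6.68 and 7.29 CPM in WT, 14.6 and 16.2 CPM in mCdx2-OE and 12.9 and 15.0 CPM in rCdx2-OE. Its change was 1.14 (SE 0.14) with mCdx2 and 0.99 (SE 0.14) with rCdx2 on the log2 scale, so that the 2 constructs fell on either side of the 2-fold limit. The rCdx2 change passed that limit without rCdx2-OE replicate 1 (1.097) or without WT replicate 2 (1.05). Pbx4, best known for its role in the testis, was at 4.31 to 4.86 CPM in WT and 6.46 to 8 CPM with intact Cdx2, 1.65-fold and 1.47-fold higher. Pbx2, the widely expressed Pbx gene, was at 76.5 and 77.7 CPM in WT and 54.9 to 69.6 CPM with intact Cdx2, with log2 changes of −0.37 (SE 0.12) and −0.29 (SE 0.12). Tgif1 was at 105.7 and 106.8 CPM in WT and 109.2 to 117.6 CPM with intact Cdx2, and did not pass (edgeR adjusted p = 0.16 and 0.24).

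**Figure D2:**
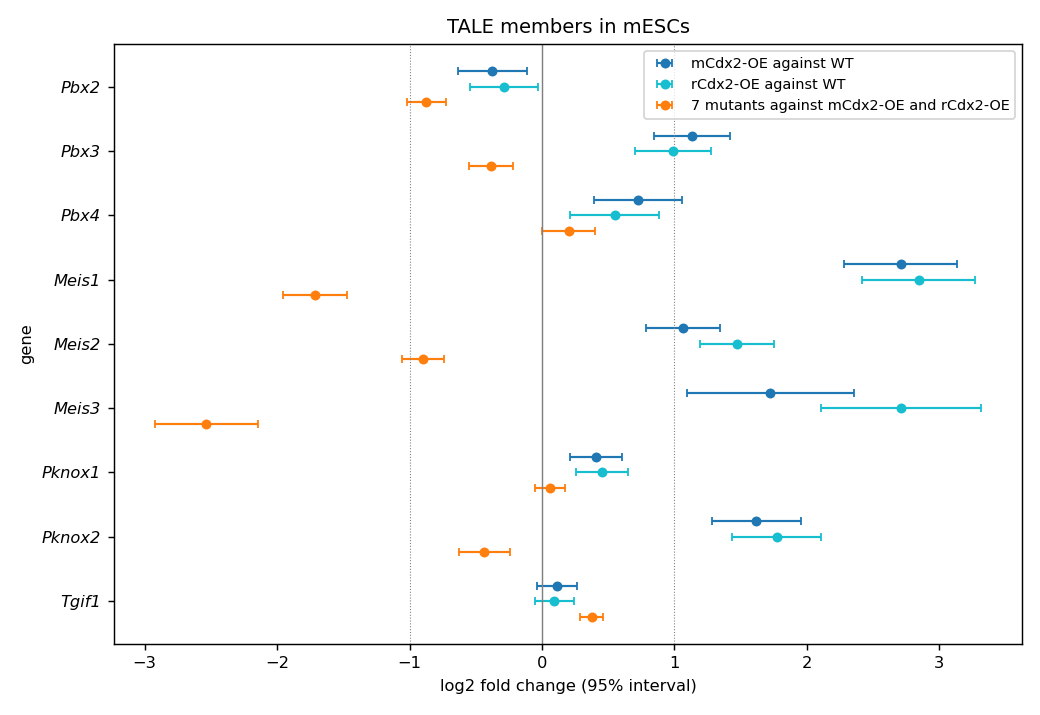
Log2 fold change of the 9 genes in mESCs with 95% intervals, for mCdx2-OE against WT, rCdx2-OE against WT and the mean of the 7 mutants against the mean of mCdx2-OE and rCdx2-OE; dotted lines mark 2-fold. Meis1 sits at 2.71 and 2.85 in the comparisons with WT and at −1.71 in the comparison of mutants with intact Cdx2, and Tgif1 at 0.11, 0.09 and 0.38.

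mCdx2-OE and rCdx2-OE were then compared with each other. None of the 9 genes passed (edgeR quasi-likelihood test, adjusted p over 0.05), where 0.0187% of all genes did (3 of 16000, and 22 of 12581 by DESeq2). At an unadjusted p under 0.05 there were 2 of the 9, beside 857 of the 16000 genes, and DESeq2 called none of the 9. These were Meis3, at −0.99 (95% interval −1.60 to −0.38, edgeR adjusted p = 0.50), and Meis2, at −0.40 (−0.69 to −0.12, edgeR adjusted p = 0.66), both higher with rCdx2. For the other 7 genes the log2 difference, mCdx2 over rCdx2, lay between −0.15 and 0.17, with intervals that stayed within −0.54 and 0.53. Missing the threshold does not show that the constructs act alike, and the Meis3 interval includes differences of over 2-fold.

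With the 7 mutants, Pbx2 was lower and Pknox2 higher than in WT whichever mutant was used, and Meis1 was higher in most of them. Against WT, the mutants gave 24 calls out of 63 gene and mutant pairs: 16 higher and 8 lower, against 12.1% and 13.8% of all pairs of genes and mutants. At any fold, 56 pairs passed, against 63.7% of all pairs. Pbx2 was called lower in 7 of 7 mutants and Pknox2 higher in 7 of 7. Meis1 was called higher in 6, Pbx4 in 3 (R3, R13 and R123) and Meis3 lower in 1 (R23). The log2 change ran from −1.38 to −1.10 for Pbx2, from 1.03 to 1.497 for Pknox2 and from 0.95 to 1.16 for Meis1. Pbx3, Meis2, Pknox1 and Tgif1 were called in none.

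Averaged over all 9 constructs, 2 of the 9 genes were called higher (Meis1 at 1.45, SE 0.16, and Pknox2 at 1.36, SE 0.12), against 13.2% of all genes, and 1 lower (Pbx2 at −1.01, SE 0.082), against 13.5%. At any fold 8 passed, against 74.7% of all genes, Meis3 being the exception (0.25, SE 0.23, edgeR adjusted p = 0.35). The Pbx2 average sat at the 2-fold limit, and it moved to between −0.99 and −0.998 without replicate 1 of R1, R3, R12, R13, R23 or R123, or without replicate 2 of WT, mCdx2-OE or rCdx2-OE.

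The mutants were also set against intact Cdx2, a comparison chosen after the counts had been read. R123 is rat Cdx2 with all 3 mouse changes. Meis1 averaged 1.88 CPM in R123 and 5.84 CPM in mCdx2-OE, and Cdx2 itself 50.5 ± 16.3 and 112.6 ± 20.9 CPM (mean ± SD, n = 2). In this comparison the amino acid changes cannot be told apart from other differences between the sets of lines. Of the 9 genes, 1 was called higher in the mean of the 7 mutants than in the mean of mCdx2-OE and rCdx2-OE, against 30.6% of all genes, and 6 lower, against 33.4%. A call here needed only the adjusted p. Meis3 had the largest difference, at 0.24 to 1.36 CPM in the mutants (median 0.64) and 2.80 to 5.65 CPM with intact Cdx2. No mutant library reached an intact one, and the log2 difference was −2.53 (SE 0.18, edgeR adjusted p = 4.6e-09). Behind the mutant values stood only 5 to 23 counts per library, so single mutants are imprecise for this gene.

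Meis1 was at 1.46 to 2.47 CPM in the mutants (median 1.82), between the WT and the intact libraries without touching either, with a log2 difference from intact Cdx2 of −1.71 (SE 0.11). Meis2 was at 9.20 to 13 CPM (median 11.4), also below every intact library, with a difference of −0.90 (SE 0.075). For Pbx2, the mutants were at 26.3 to 38.0 CPM (median 33.9), below the intact libraries, which were themselves below WT, and the difference was −0.87 (SE 0.069). Tgif1 went the other way, at 137.6 to 160.4 CPM (median 148.4), above every WT and intact library, with a difference of 0.38 (SE 0.041). Pknox2 (−0.44, SE 0.090) and Pbx3 (−0.39, SE 0.079) also passed, with mutant libraries of 7.11 to 12.2 CPM and 9.19 to 13.4 CPM that overlapped the intact ones. Pbx4 (0.20, edgeR adjusted p = 0.072) and Pknox1 (0.06, edgeR adjusted p = 0.34) did not pass, and Pbx4 passed without replicate 2 of R1, R2 or R12 (edgeR adjusted p = 0.038 to 0.046). Cdx2 itself differed by −0.26 (SE 0.27, edgeR adjusted p = 0.42) between mutant and intact libraries. Within replicate 1 alone, Cdx2 was at 61.95 to 146.6 CPM in mutants and 70.4 to 97.9 CPM with intact Cdx2, and Meis1 was at 1.46 to 2.13 CPM and 5.69 to 6.31 CPM. Within replicate 2, Meis1 was at 1.62 to 2.47 CPM in mutants and 5.98 to 6.52 CPM with intact Cdx2, while Cdx2 was at 37.2 to 68.8 CPM and 67.0 to 127.4 CPM. Each run thus gave the Meis1 gap by itself, and the part of the Cdx2 level in this gap was not tested.

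Across the 9 constructs, 8 of the 9 genes differed (joint edgeR test, adjusted p under 0.05), against 56.9% of all genes, Pknox1 being the exception (edgeR adjusted p = 0.21). Of these, Pbx3 lost its call without mCdx2-OE replicate 2 (edgeR adjusted p = 0.095), and Pbx4 lost it without replicate 1 of rCdx2-OE, R3 or R13, or replicate 2 of R1, R3, R13 or R123 (edgeR adjusted p = 0.0504 to 0.062). Among the 7 mutants alone, none of the 9 genes differed by edgeR or DESeq2, against 22.5% of all genes by edgeR. At an unadjusted p under 0.05 there were 2 of the 9, Pbx4 and Meis3, with edgeR adjusted p of 0.068 and 0.082. Either passed in edgeR when 1 library was left out, Pbx4 without replicate 1 of R1 or R12 and Meis3 without replicate 2 of R3 or R13, at adjusted p of 0.041 to 0.043. In the order of the 10 group means, few neighbours stood further apart than 2 pooled SDs. Meis1 fell into 3 levels (intact, mutant and WT), the 7 mutants lying between 1.71 and 1.98 CPM on average, and Pbx2 into WT, intact and mutant levels, the mutants lying between 29.5 and 35.9 CPM. For Meis2 and Meis3, rCdx2-OE and mCdx2-OE each stood apart from the next group, and no gap between neighbours below them exceeded that spread.

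Most Hox genes, whose products the TALE proteins bind alongside, were higher than in WT. Of 39 Hox genes, 35 passed the filter, and 31 were called higher in mCdx2-OE, 30 in rCdx2-OE and 28 over the mean of the 9 constructs, with none lower, against 18.4%, 19.0% and 13.2% of all genes called higher. Hoxa9 rose from 0.026 ± 0.0039 CPM in WT to 20.9 ± 3.7 in mCdx2-OE (mean ± SD, n = 2), with too few counts in WT for a firm fold. Hoxa7 rose by 4.51 (SE 0.17), Hoxb9 by 1.95 (SE 0.22) and Hoxc13 by 1.03 (SE 0.18) in the same comparison. In the mutants against intact Cdx2, 24 of the 35 were lower and 3 higher, against 33.4% and 30.6% of all genes, with Hoxa9 at −0.48 (SE 0.10), Hoxb9 at −0.34 (SE 0.13), Hoxc13 at 0.47 (SE 0.11) and Hoxa7 not passing at 0.16 (SE 0.081). Levels of near-identical Hox paralogues are uncertain in such counts.

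Of the 9 further TALE and Pbx-binding genes, 8 passed the filter. Against 18.4% and 19.0% of all genes, 5 of these 8 were called higher in both mCdx2-OE and rCdx2-OE, and none lower. They were the Iroquois genes, which pattern neural and cardiac tissue: Irx1 (3.71 in mCdx2-OE, SE 0.39), Irx2 (1.47, SE 0.12), Irx3 (3.04, SE 0.32), Irx4 (4.28, SE 0.30) and Irx5 (1.85, SE 0.55). In the mutants against intact Cdx2, Irx3 (−3.94, SE 0.21), Irx4 (−1.53, SE 0.15), Irx5 (−1.47, SE 0.35), Irx1 (−1.05, SE 0.22) and the Pbx-binding protein gene Pbxip1 (−0.79, SE 0.065) were lower and Tgif2 higher (0.34, SE 0.052), the Irx3 value resting on 1 to 12 counts per mutant library. In the same comparison, 33.4% of all genes were lower and 30.6% higher. Among the latter were both Tgif2, a close relative of Tgif1, and Tgif1.

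By likeness of pattern over the 20 mESC libraries, Tgif1 was nearest to Rbpms2 (Pearson r = 0.981 of log2(CPM + 1)), Meis1 to Abca3 (0.979), Pbx2 to Agap3 (0.979), Meis3 to Trpv2 (0.964), Pknox2 to Tagln2 (0.962), Meis2 to Amotl2 (0.954), Pbx3 to Mtmr1 (0.938), Pknox1 to Ap1g1 (0.924) and Pbx4 to Mst1 (0.922). Each was the best of 13149 genes with at least 1 CPM on average. The 20 points share the 3 kinds of library (WT, intact and mutant) and their depths, so a high value says that 2 genes follow these kinds alike.

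In RMES cells the libraries labelled WT and the induced libraries differed in more than induction. Mitochondrial genes took 2.32 to 2.65% of the mouse table in the libraries labelled WT and 0.026 to 0.031% in the induced ones, and 0.0059 to 0.0078% of the rat table against 13.9 to 14.3%. Cdx2 was already at 126.6 to 129.1 CPM on the mouse allele and 439.6 to 452.8 CPM on the rat allele in the libraries labelled WT. In mCdx2-OE it was at 967.5 CPM on the mouse and 47.2 CPM on the rat allele, and in rCdx2-OE at 4.45 and 879.8 CPM. The 7 trophoblast markers summed to 165 to 173.3 CPM in WT and 851.4 to 1001 CPM in induced libraries on the mouse allele, and to 302.4 to 320.8 and 971 to 1074 CPM on the rat allele. The 6 pluripotency markers went the opposite way, from 4259 to 4267 CPM in WT to 1668 to 1685 CPM when induced on the mouse allele, and from 3538 to 3559 to 1148 to 1200 CPM on the rat allele. On the mouse allele, 5 posterior mesoderm markers summed to 13.9 to 14.7 CPM in WT and 1.26 to 1.55 CPM when induced, and the 7 fibroblast markers to 22.4 to 27.2 and 7.87 to 10.8 CPM. On the rat allele these lists stood at 0.10 to 0.29 CPM in WT and 0.47 to 0.59 CPM when induced (posterior mesoderm), and at 20.6 to 26.7 and 23.6 to 29.9 CPM (fibroblasts). In the comparisons below, induction and these other differences cannot be told apart. With 1 library per construct, mCdx2-OE and rCdx2-OE were tested together as 2 induced libraries.

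On the mouse allele, 4 of the 9 genes were called higher in the induced libraries, against 28.3% of 16887 genes, and 1 lower, against 16.1%. At any fold all 9 passed, against 81.9% of all genes. Pbx4 had the largest rise, from 0.62 and 0.64 CPM in WT to 7.44 CPM in mCdx2-OE and 6.41 CPM in rCdx2-OE, 3.45 on the log2 scale (SE 0.22). Meis3 was at 1.02 and 0.98 CPM in WT and 9.11 and 11.5 CPM in the induced libraries, a rise of 3.37 (SE 0.20). Meis1 was at 0.80 and 1.56 CPM in WT and 3.31 and 3.37 CPM in the induced libraries (1.48, SE 0.27), with WT libraries that differed from each other by more than the induced ones did. Pknox2 was at 5.55 and 5.02 CPM in WT and 10.7 and 11.1 CPM when induced (1.04, SE 0.13), and fell below the 2-fold limit without WT replicate 2 (0.96). Meis2 was the gene called lower, from 30.4 and 31.7 CPM in WT to 4.39 and 4.31 CPM in the induced libraries, −2.84 on the log2 scale (SE 0.10, edgeR adjusted p = 9.4e-11). The posterior mesoderm, fibroblast and pluripotency sums given above were lower in the same libraries, but not every marker fell. Of 3 posterior mesoderm markers tested on this allele, 1 was called higher and 1 lower. Of 5 fibroblast markers, 1 was called higher and 3 lower, and of 6 pluripotency markers 4 were called lower and none higher. The part of these cell types in the Meis2 difference was not tested. Tgif1 was at 162.5 and 159.9 CPM in WT and 97.8 and 98.6 CPM when induced (−0.72, SE 0.051), short of 2-fold.

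On the rat allele, 3 of the 9 genes were called higher, against 28.3% of 14627 genes, and none lower, against 14.2%. At any fold 7 passed, against 82.5% of all genes, Pbx3 and Meis2 being the exceptions (edgeR adjusted p = 0.61 and 0.63). Meis3 was at 0.48 and 0.53 CPM in WT and 11.1 and 14.6 CPM in the induced libraries, a rise of 4.66 (SE 0.24). Pknox2 was at 0.73 and 0.83 CPM in WT and 10.3 and 7.63 CPM when induced (3.51, SE 0.24), and Meis1 at 0.62 and 0.63 CPM in WT and 2.69 and 3.37 CPM when induced (2.27, SE 0.28). Pbx4 was at 5.89 and 5.04 CPM in WT and 8.51 and 11.2 CPM when induced (0.85, SE 0.16), and passed the 2-fold limit without mCdx2-OE (1.03). Pknox1 was at 127.5 and 129.6 CPM in WT and 68.0 and 65.6 CPM when induced (−0.94, SE 0.058), just short of the limit. Meis2 stayed near 1 CPM throughout, at 0.77 and 0.87 CPM in WT and 1.20 and 0.68 CPM in the induced libraries. Meis1 and Meis3 were thus low in WT and higher in each induced library on both alleles, whereas the mouse allele of Meis2 was lower in each induced library.

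**Figure D3:**
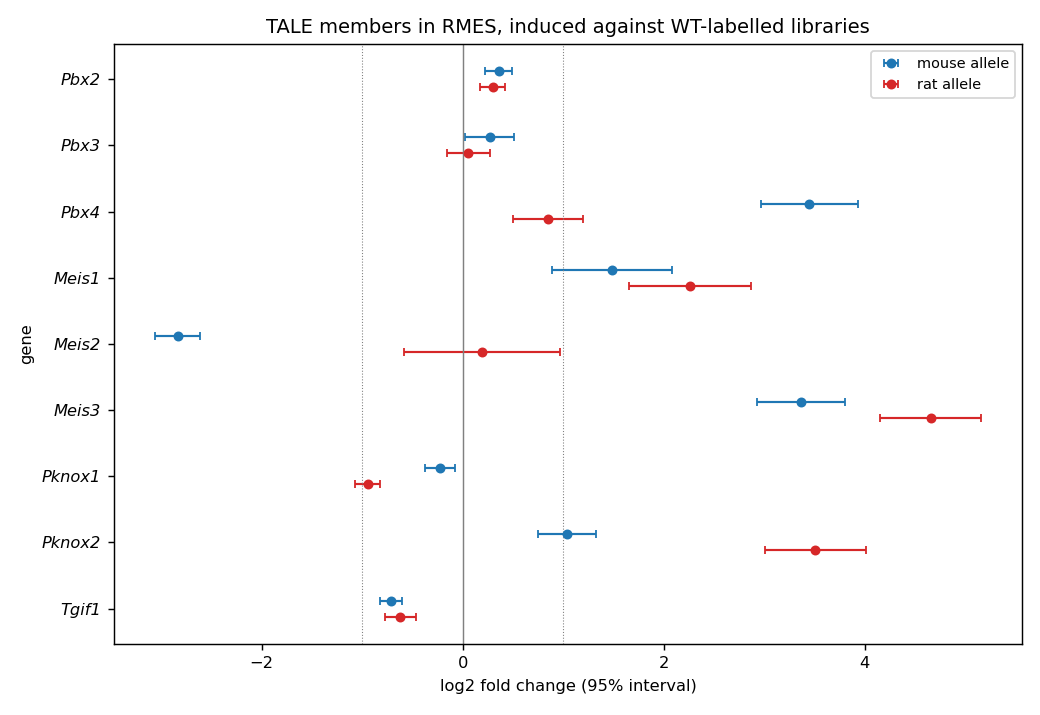
Log2 fold change of the 9 genes in RMES cells, induced against libraries labelled WT, with 95% intervals, for the mouse allele and the rat allele; dotted lines mark 2-fold. Meis2 lies at −2.84 on the mouse and 0.19 on the rat allele, Pbx4 at 3.45 and 0.85, and Pknox2 at 1.04 and 3.51.

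As both alleles are counted in the same libraries, the difference between their responses was tested in 1 fit of both tables that blocked on the library. It passed for 5 of the 9 genes, against 62.1% of 13605 genes paired by symbol. The response of the rat allele was higher than that of the mouse allele for Meis2 (3.05, SE 0.33), Pknox2 (2.48, SE 0.27) and Meis3 (1.31, SE 0.34), and lower for Pbx4 (−2.58, SE 0.29) and Pknox1 (−0.70, SE 0.059). Meis1 (0.79, SE 0.40, edgeR adjusted p = 0.093) and Tgif1 (0.12, SE 0.053, edgeR adjusted p = 0.062) did not pass, and Meis1 passed without WT replicate 1 (1.16, edgeR adjusted p = 0.044). The difference for Meis2 came with WT levels of 30.4 and 31.7 CPM on the mouse and under 1 CPM on the rat allele, and that for Pbx4 with 0.62 and 0.64 CPM on the mouse and 5.04 and 5.89 CPM on the rat allele. After induction, the 2 alleles of Pknox2 stood at 10.7 and 11.1 CPM (mouse) and 10.3 and 7.63 CPM (rat). Levels of the 2 alleles come from different annotations and are set side by side only.

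Of the Hox genes in RMES cells, 7 were called higher and 14 lower of 33 tested on the mouse allele, against 28.3% and 16.1% of all genes. On the rat allele 12 were called higher and 4 lower of 24, against 28.3% and 14.2% of all genes. Of the further TALE and Pbx-binding genes, 4 of 8 were called higher on each allele (Irx1, Irx3, Irx4 and Irx5), against the same 28.3% of all genes. Tgif2 was lower on the rat allele (−1.61, SE 0.065).

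The chromatin around the 9 genes was then read from ATAC and Cdx2 ChIP peaks in the gene body or within 30 kb of the start, with coordinates of GRCm38 and gene models of GENCODE M21. Cdx2 ChIP peaks clustered at the long genes. Pbx3 (chr2:34171457-34373142, − strand) had 20 peaks in mESCs, a number reached by 1.52% of 19563 genes. Pknox2 (chr9:36890982-37147407, − strand) had 15 (2.63% of genes), Meis2 (chr2:115863064-116065839, − strand) 14 (2.99%) and Meis1 (chr11:18879817-19018985, − strand) 10 (5.75%). These 4 genes run over 139.2 to 256.4 kb, and longer genes offer more room for peaks. Counting only peaks within 30 kb of the start, Pbx3 and Meis2 had 7 each (2.22% of genes), Pknox2 4 (17.8%) and Meis1 3 (31.5%). Tgif1 (chr17:70844205-70853546, − strand) had 5, Pknox1 (chr17:31564734-31607693, + strand) 2, and Pbx4 (chr8:69832491-69872292, + strand) and Meis3 (chr7:16175090-16186504, + strand) 1 each, where the median gene had 2. Pbx2 (chr17:34591266-34597400, + strand) had none. No ChIP peak on the mouse genome lay over the start of any of the 9, and the share of all genes without one was not counted. Peaks on the rat genome were not analysed, so these counts cannot be set beside RNA changes on the rat allele of RMES cells.

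The strongest peak, in the Pbx3 intron shown above, had 526 reads over both libraries (239 with mCdx2 and 287 with rCdx2), as many as or more than all but 1.83% of peaks. The Meis1 peak had 398 reads (213 and 185) and the Pknox2 peak 218 (118 and 100). The Meis3 peak, 0.8 kb upstream of the start, had 48 (24 and 24), a number that 88.2% of peaks reached. Over the 68 peaks, the log2 ratio of rCdx2 to mCdx2 reads, scaled to the mean total, ran from −0.54 to 0.73 with a median of 0.02, beside 0.01 over all peaks. With 1 library per construct these ratios have no replicate check. In RMES cells, Pbx3, Meis1, Meis2 and Pknox2 had 11 mouse-genome peaks each, a number reached by 3.24% of genes. Pbx2 and Tgif1 had 1 each, reached by 68.9% of genes, and the others had none. Of the 68 mESC peaks, 40 (58.8%) overlapped an RMES peak, beside 64.8% of all peaks.

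Accessibility changed at few of the 147 ATAC peaks near the 9 genes. A peak was counted as opened or closed when the scaled reads of mCdx2-OE and WT differed by over 2-fold with at least 40 in all, with no replicate to test it. By this rule 12 peaks opened (8.16%, against 9.56% of all peaks) and 17 closed (11.6%, against 14.3%). Without scaling to the mean total the balance turned, to 20 opened and 9 closed. Of the 12 opened peaks 9 overlapped a Cdx2 ChIP peak, and of the 17 closed peaks none did. Over all peaks, 6820 of 11698 opened peaks and 520 of 17509 closed peaks overlapped one.

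The opened peak with the largest ratio was the Meis1 intron peak whose sequence is shown above, at chr11:18916554-18917393 and 102.0 kb inside the gene. It went from 4.71 reads in WT to 106.9 in mCdx2-OE after scaling, 4.24 on the log2 scale, and the unscaled counts had 95% exact Poisson intervals of 1.09 to 10.2 and 102 to 147, for counting error only. A further Meis1 peak, 3.1 kb upstream of the start at chr11:19021501-19022755, went from 11 to 77 unscaled reads (2.28 after scaling). Both overlapped Cdx2 ChIP peaks in mESCs and in RMES cells. For Pknox2, 3 peaks opened and 6 closed. The opened ones, all overlapped by ChIP peaks, went from 6 to 47 unscaled reads (2.38 after scaling), from 18 to 55 (1.14) and from 22 to 107 (1.80). The start nearest to the former 2 was that of Fez1. Pbx3 had 1 opened peak, 8.0 kb upstream at chr2:34380835-34381359, which went from 7 to 39 unscaled reads (1.92 after scaling), and 2 closed ones.

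Meis2, which rose in mESCs, had no opened peak and 4 closed ones, all in its introns, with log2 ratios from −2.05 to −1.18 and no ChIP peak over any of them. Before scaling, the peaks at −1.18 (202 to 120 reads) and −1.25 (31 to 17 reads) fell by under 2-fold. Meis3 had neither opened nor closed peaks. Pknox1, called in none of the mESC comparisons with WT, had 3 opened peaks and 1 closed. Tgif1 had 2 opened and 3 closed, Pbx4 1 opened and Pbx2 1 closed. An ATAC peak over the start was present for all 9 genes, and the share of all genes with such a peak was not counted. After scaling, the largest ratio over a start was that of Pbx3, from 236.7 to 459.7 reads (0.95 on the log2 scale). Meis1 followed, from 182.5 to 298.9 (0.71), and then Meis3, from 55.3 to 80.0 (0.52), all under 2-fold. The unscaled reads went from 201 to 529 for Pbx3 and from 155 to 344 for Meis1, both over 2-fold, and from 47 to 92 for Meis3.

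**Figure D4:**
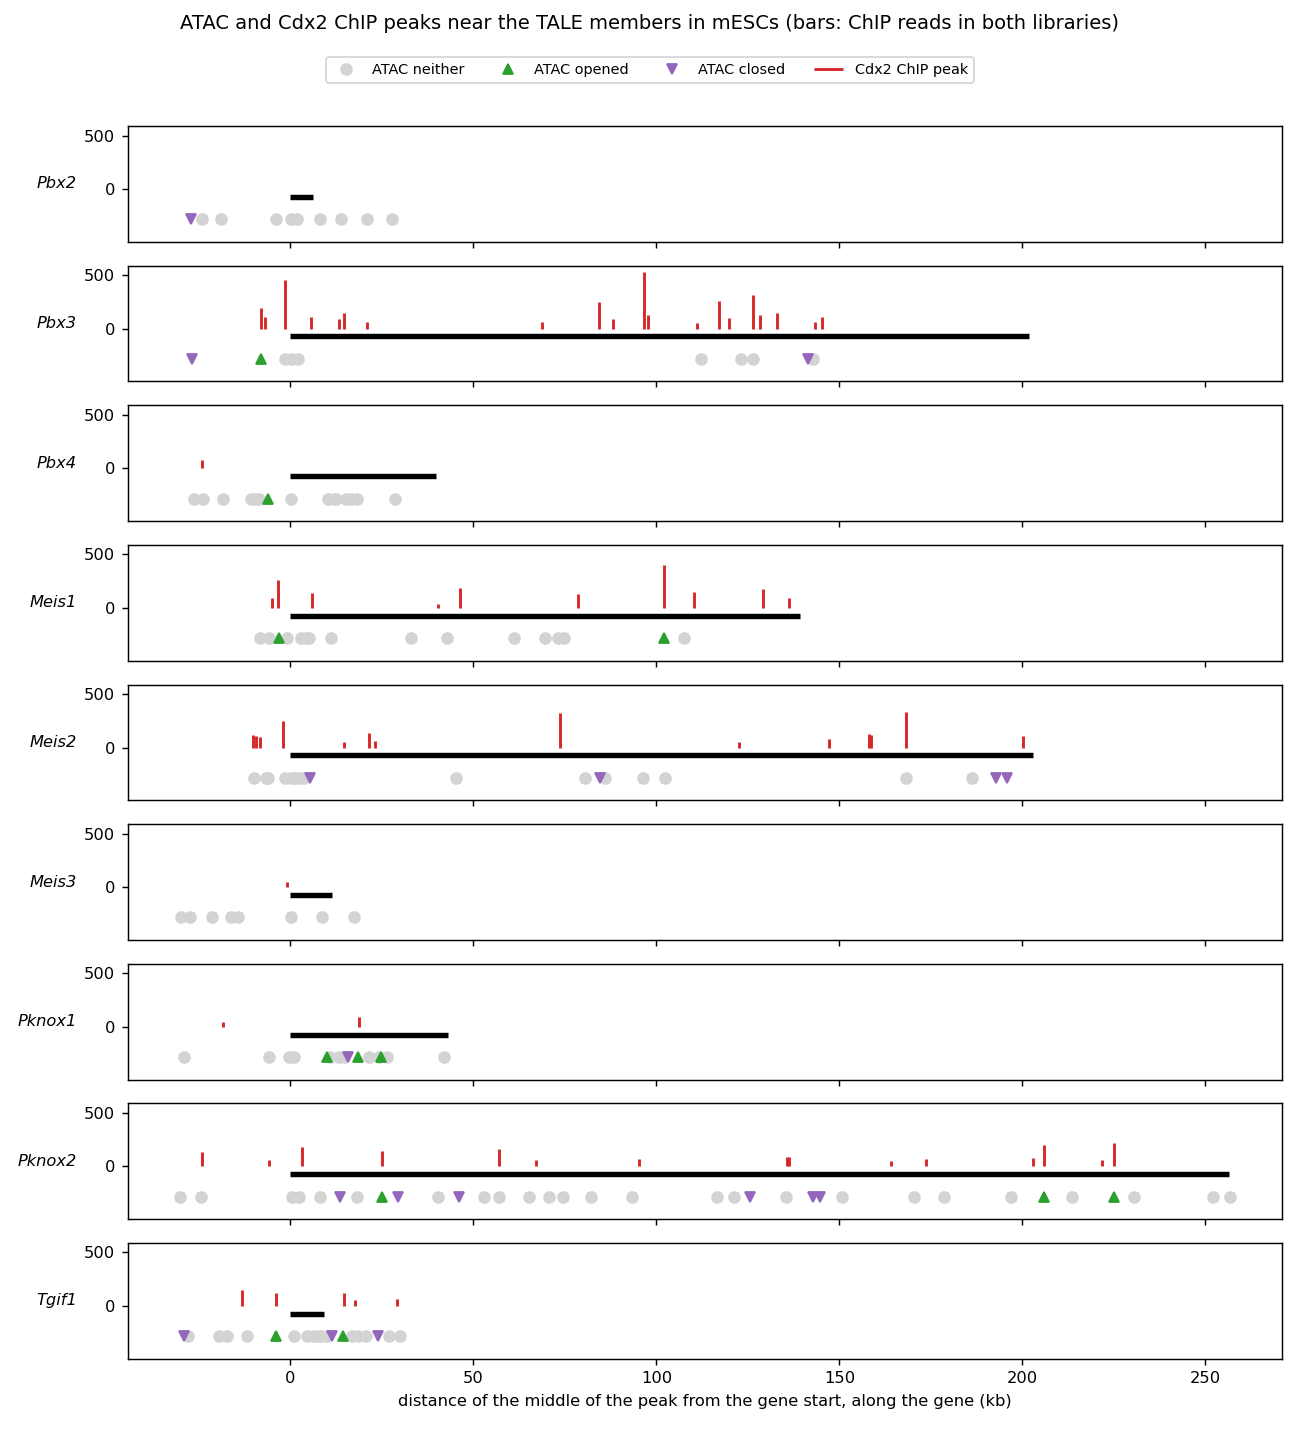
Cdx2 ChIP and ATAC peaks in mESCs around the 9 genes, 1 row per gene, by distance from the gene start in kb along the direction of transcription; bars give ChIP reads in both libraries, the black line is the gene body and symbols mark ATAC peaks that opened, closed or did neither. Pbx3, Pknox2, Meis2 and Meis1 have 20, 15, 14 and 10 ChIP peaks in the gene body or within 30 kb of the start, and Pbx2 has none.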

How the data were processed

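RNA-seq, ATAC-seq and ChIP-seq libraries of mESCs and RMES cells were analysed from unnormalised read counts deposited by the authors. Per the study's methods, the authors aligned RNA reads with STAR 2.7.0d to mm10, or for RMES cells to mm10 and rn6 with reads assigned by edit distance, and counted strand-specific pairs on genes with featureCounts. The 2 replicates of each mESC group were counted in separate runs, and the run of replicate 2 left out incomplete and chimeric pairs. ATAC and ChIP reads were aligned with Bowtie2 2.3.4.3 (adapters of ChIP reads were trimmed with cutadapt 2.6), and the deposited counts are reads in MACS2 peaks called on merged libraries, so a peak need not be present in each library.

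Here counts were tested with edgeR 4.0.16 (limma 3.58.1, R 4.3.3) by the quasi-likelihood test after TMM normalisation and filterByExpr, and p-values were adjusted by the Benjamini-Hochberg method over all genes tested with a threshold of 0.05. A change over 2-fold was also required in comparisons with WT. All 20 mESC libraries shared 1 fit. RMES alleles were fitted apart (4 libraries each) and then together, blocked on the library. CPM are counts scaled to the library's total over genes after adjustment by its TMM factor, so they differ from counts over the plain total. The steps were tested on simulated data. DESeq2 1.42.0, RLE normalisation, no filter, a replicate block and leaving out each library were the alternatives. ATAC and ChIP counts, brought to the mean total of their table, were compared as log2 ratios with 1 added. Same-numbered libraries were not treated as pairs, as their deviations correlated in only some pairs of groups. The sequence of 1 peak is not reported here. Members and gene lists were chosen with earlier results of these data known. All 9 genes were named, with the Hox genes having the most counts and, per gene, the best correlated gene. RefSeq promoters (GRCm38.p6) were used for motif shares. ChIP columns marked MFO and RFO, of mESCs and of RMES cells, were read as mCdx2-OE and rCdx2-OE from the abbreviation alone. ChIP peaks on rn6 were not analysed here.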

Additional observations from a re-analysis of the deposited data

Results flagged for a closer look

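In RMES cells, the induced libraries moved the rat and the mouse allele of 5 genes by different amounts in a test of the difference itself (edgeR interaction, adjusted p under 0.05). The rat response minus the mouse response was −2.58 for Pbx4, 3.05 for Meis2, 1.31 for Meis3, −0.70 for Pknox1 and 2.48 for Pknox2 on the log2 scale, beside 62.1% of all genes with such a difference.

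For 4 genes, every induced library stood on one side of its WT libraries in mESCs with intact Cdx2 and on the opposite side on the mouse allele of RMES cells. In RMES cells the log2 changes were 0.36 for Pbx2, −2.84 for Meis2, −0.23 for Pknox1 and −0.72 for Tgif1, and in mESCs with mCdx2 they were −0.37, 1.07, 0.41 and 0.11. The Tgif1 change in mESCs did not pass (edgeR adjusted p = 0.16 with mCdx2). How many of all genes lay on opposite sides in this way was not counted. The difference between the cell types was not tested, and the RMES libraries labelled WT differ from the induced ones in mitochondrial origin as well.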

How the results depend on the processing

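RLE normalisation, no filter and DESeq2 left each count of called genes among the 9 within 1.5 times its value in the 8 mESC and 2 single-allele RMES comparisons, and for the difference between alleles so did the settings tried. Over all genes, mCdx2-OE against rCdx2-OE gave 3 calls, 1 with no filter, 1 with the replicate block and 22 with DESeq2. Of 531 alternatives for single genes, 515 kept direction and call, 5 gained a call, 5 lost it and 6 changed sign. The sign changes came from leaving out 1 library in differences that had not passed: mCdx2 over rCdx2 for Pbx2 (−0.224 to 0.0775), Pknox1 (−0.17 to 0.0842) and Tgif1 (−0.030 to 0.0751), the rat allele for Pbx3 (−0.0659 to 0.176) and Meis2 (−0.268 to 0.549), and the difference between alleles for Pbx2 (−0.101 to 0.00732). Without the 2-fold limit, 8 genes were called for mCdx2-OE, 8 for rCdx2-OE, 56 gene and mutant pairs, 8 for the mean of 9 constructs, and 9 and 7 for the mouse and rat alleles of RMES cells. Leaving out 1 library gave 0 to 1 genes differing among the 7 mutants. Opened ATAC peaks numbered 20 without scaling and 3 at over 4-fold, and closed ones 9 without scaling, 5 at over 4-fold, 9 within 30 kb only and 27 with no minimum of reads. ChIP peaks numbered 38 with at least 100 reads and 30 within 30 kb only, and 4 opened peaks were covered to 50% by a ChIP peak. The causes were not tested.

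The replicate numbers missed the criterion for pairing, a correlation over 0.1 in every pair of groups: same-numbered libraries of 45 pairs of groups deviated with correlations from −0.21 to 0.64 (median −0.02), 22 of them over 0.1. Libraries still differed by number, since in 7 of 7 mutants replicate 1 had the higher Cdx2 level (61.95 to 146.6 CPM, against 37.2 to 68.8 CPM) and mitochondrial share and the lower pluripotency sum. With the replicate number as a block, the same counts were called for mCdx2-OE (5), rCdx2-OE (4), the mutants (24), the mean of 9 constructs (3), mCdx2 against rCdx2 (0), the 9 constructs (8), mutants against intact Cdx2 (7) and the 7 mutants (0). In RMES cells the 2 libraries of the induced group are different constructs, so no paired fit was made there. Depth limits Meis3 in the mutants, with 5 to 23 counts a library, and ATAC and ChIP have 1 library per condition.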
